A study of Mus musculus with 12 samples.

Results

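The departure from additivity asks, gene by gene, whether losing HMGN1 and HMGN2 together changed the RNA by the sum of what losing each did alone. It was taken as a contrast of 4 group means on the log2 scale, the double knockout minus Hmgn1-/- minus Hmgn2-/- plus WT, over all 12 of the 12 samples of the series. A gene above the sum had more RNA in the double knockout than the added single effects give, and a gene below the sum had less. RNA-Seq counts were available for 3 biological replicates of each of 4 lines of v6.5 cells, a male mouse embryonic stem cell (mESC) line.

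The 4 groups were WT mESCs, Hmgn1-/- mESCs with a homozygous 1 bp deletion, Hmgn2-/- mESCs with a homozygous 1 bp insertion, and Hmgn1-/-Hmgn2-/- mESCs, with both kinds of allele homozygous. For the last of these, Hmgn1 was edited in cells of the Hmgn2-/- line. All edited lines came from CRISPR-Cas9 and were grown from single cells, so each edited genotype is 1 clone. An effect of genotype cannot be told apart from other differences between these clones and the WT cells. Library totals ran from 17337908 to 31448468 counts. Replicate 3 of Hmgn2-/-, the smallest library, stood apart from its replicates, with a chi-square per degree of freedom of 36.4 and 20.6 against replicates 1 and 2, where the other 10 pairs of replicates had 3.402 to 12.1.

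HMGN proteins bind nucleosomes without a preference for a DNA sequence, and they are known to loosen chromatin and to compete with linker histone H1. HMGN1 and HMGN2 share their nucleosome-binding domain and occupy much the same sites in mESCs, which raised the question of whether one stands in for the other. If each acted alone, log2 effects would add. If either loss already gave the whole change, the 3 knockouts would lie level, and by arithmetic the departure would then equal WT minus the knockouts, with the opposite sign to the change itself.

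The guides are shown because they mark where the alleles were edited. Each is written 5′ to 3′, with capitals for the bases that lie in an exon of the GENCODE annotation (GRCm38, the same assembly as mm10), and each reads against the strand of its gene, which is the minus strand for both.
Hmgn1: acttacGGCCGACAGCCTCG
Hmgn2: aggctggcttacCTTCGCAG
The 14 exonic bases of the Hmgn1 guide lie at chr16:96127311-96127324, at the 3′ end of exon 3. The 8 exonic bases of the Hmgn2 guide lie at chr4:133966429-133966436, at the 3′ end of exon 5 of the annotated transcript used, and no other exon of it ends in them. The study's methods number the edited exon 4, and which transcript that number follows is not given in the sources used here. The lower-case bases lie outside the transcript.

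The RNA of the edited genes was examined first. Levels are given in CPM, the counts of a gene scaled to library size (TMM). Hmgn1 stood at 663, 600.1 and 614 CPM in the 3 WT libraries and at 138, 139 and 142 CPM in Hmgn1-/- mESCs. It stood at 545, 556 and 639.9 CPM in Hmgn2-/- mESCs and at 21.5, 19.9 and 21.4 CPM in the double knockout. Both lines labelled as lacking Hmgn1 were thus low in every library, and the double knockout lay below the Hmgn1-/- line with no overlap. The sum of the single effects was -2.27 and the double knockout lay at -4.90 against WT, a departure of -2.63 ± 0.0991 (SE; adjusted p = 4.25e-10, edgeR quasi-likelihood test, n = 3 libraries a group). Hmgn1 was the only gene called below the sum in which the double knockout had moved farther from WT than the sum in the same direction. As Hmgn1 was edited separately in the 2 lines, its departure sets 2 edited clones against each other. It does not bear on how the 2 losses combine.

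Hmgn2 stood at 137, 123 and 119.6 CPM in WT mESCs, and at 50.7, 54.6 and 53.8 CPM in Hmgn2-/- mESCs. In Hmgn1-/- mESCs it stood at 105, 113 and 109 CPM and in the double knockout at 53.9, 50.5 and 54.2 CPM. The double knockout and the Hmgn2-/- line overlapped, and the departure of 0.21 ± 0.0955 (SE) was not called (adjusted p = 0.183, edgeR).

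Most departures came from genes that had changed in both single knockouts (82.4% of those above the sum and 75% of those below, against 4.74% of all tested genes). Most also had no call between knockout lines (95.6% above and 80.6% below). That share was lower than the 99.5% of all tested genes. Of 23412 genes, 14323 had enough counts to be tested. A gene was called at an adjusted p under 0.01 and a log2 value of at least 1 in size, which called 499 genes, or 3.48% of those tested. Of these, 427 lay above the sum (2.98%) and 72 lay below it (0.503%). Without Hmgn2-/- replicate 3 the calls were 516, 441 above and 75 below. The median departure over all tested genes was -0.01, and the median standard error was 0.16.

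Because the departure is the effect of a loss in one background minus its effect in the other, the pairs of effects can be set side by side, and the members of each pair share no library. Hmgn1 loss in WT mESCs called 824 genes (5.75%), 131 higher and 693 lower. Hmgn1 loss in Hmgn2-/- mESCs called 18 genes (0.126%), 17 higher and 1 lower, which was Hmgn1 itself. The latter count rests on few libraries: it was 4 without double knockout replicate 2, 9 without double knockout replicate 1, 7 without Hmgn2-/- replicate 2 and 9 without Hmgn2-/- replicate 3, 37 with DESeq2 and 30 with replicate number as a block. Hmgn2 loss in WT mESCs called 853 genes (5.96%), 145 higher and 708 lower. Hmgn2 loss in Hmgn1-/- mESCs called 68 (0.475%), 46 higher and 22 lower. No line was made by editing Hmgn2 in Hmgn1-/- cells. This last contrast compares the double knockout with the separately made Hmgn1-/- clone, so other differences between these clones enter it. Hmgn1 itself was called lower in it (-2.73).

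**Figure D1:**
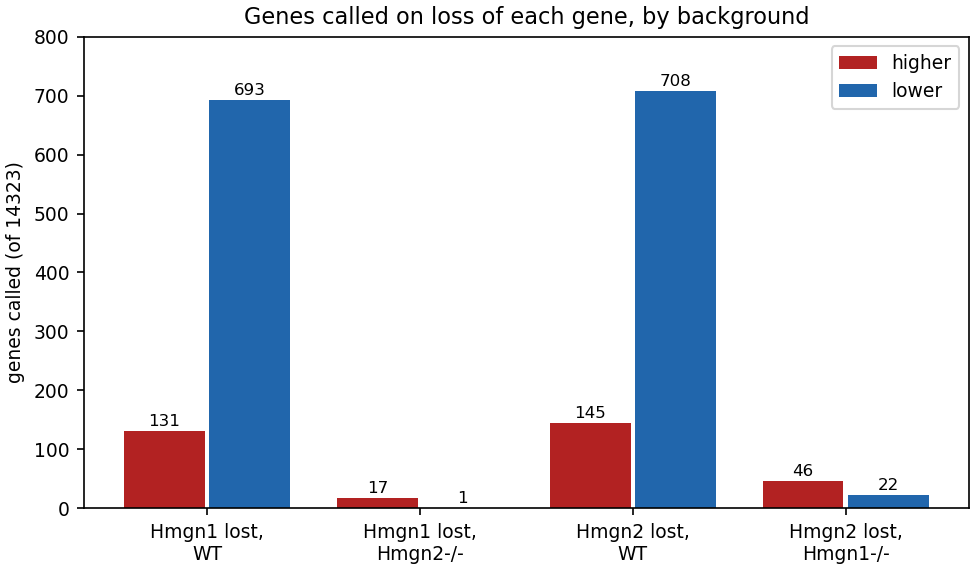
Number of genes called higher (red) or lower (blue), of 14323 tested, for each single knockout against WT and for the double knockout against each single knockout. Only Hmgn1 was edited in cells that already lacked the other gene, and the Hmgn1-/- line is a separate clone. The bars for WT mESCs reach 693 and 708 genes lower, against 1 and 22 in the edited backgrounds.

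The same held for the size of the effects. The 693 genes that fell on Hmgn1 loss in WT mESCs had a median log2 FC of -1.72 there and of 0.05 on Hmgn1 loss in Hmgn2-/- mESCs, and 376 of them were called in the departure contrast (54.3%). The 708 genes that fell on Hmgn2 loss in WT mESCs had a median of -1.65 there and of 0.06 in Hmgn1-/- mESCs. The 131 genes that rose on Hmgn1 loss in WT mESCs had medians of 1.32 and 0.06. Of them, 13 were called in Hmgn2-/- mESCs, all higher, against 18 of all tested genes. The 145 genes that rose on Hmgn2 loss in WT mESCs had medians of 1.34 there and 0.175 in Hmgn1-/- mESCs. Of these, 22 were called in Hmgn1-/- mESCs, all higher, against 68 of all tested genes. The genes of each set were chosen by the effect in WT mESCs, which enters the departure, so these values are a description.

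**Figure D2:**
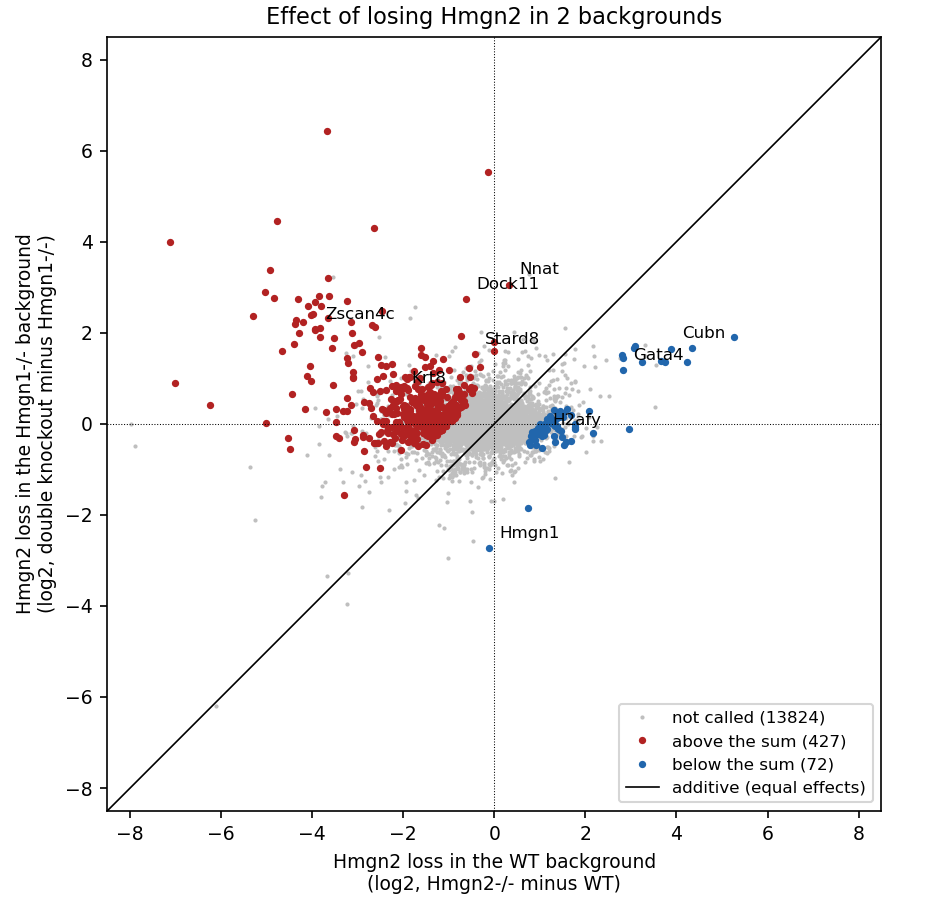
Log2 difference of Hmgn2-/- minus WT (x axis) and of the double knockout minus the separately made Hmgn1-/- line (y axis), 1 point a gene. Genes called above the sum are red (427), those below it blue (72) and the others grey. Additive genes would lie on the diagonal, and most red and blue points lie along the horizontal line at 0; Zscan4c, Cubn and Gata4 lie away from both lines.

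The order of the 4 lines is given as a description, since a positive departure itself favors a high WT mean and a negative one a low WT mean. Among the 427 genes above the sum, the WT mean was the highest of the 4 in 414 (97.0%, against 38.3% of all tested genes), and in 392 every WT library lay above every knockout library, as in 1876 of all 14323 tested genes. Both single knockouts were called against WT in 352 of the 427 (82.4%, against 4.74% of all tested genes). No pair of knockout lines was called different in 408 (95.6%), a share below the 99.5% of all tested genes. Among the 72 genes below the sum, the WT mean was the lowest in 71 (98.6%, against 39.2%) and both single knockouts were called in 54 (75.0%, against 4.74%). No pair of knockouts was called in 58 (80.6%, against 99.5%), so calls between knockout lines were more frequent here than over all genes. The double knockout against WT called 904 genes (6.31%), and Hmgn2-/- against Hmgn1-/- called 28 (0.195%). The double knockout against the mean of the single knockouts, a contrast in which WT enters only through the shared estimate of spread, called 53 genes (0.37%), 48 higher and 5 lower. This count was 32 without double knockout replicate 1 and 35 without double knockout replicate 2. Of the 53, 20 higher and 1 lower (Klhl13, chosen after its values were seen) were among the genes above the sum, and 12 higher and 1 lower (Hmgn1) were among those below it.

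Among the genes far above the sum were those of the program of 2-cell-like cells, the rare cells of an mESC culture that switch on genes of the 2-cell embryo. Of 17 listed genes, 14 were tested and 13 were called above the sum, against 2.98% of all tested genes. Their median departure was 6.41 against -0.01 over all genes, and 5.30 with groups at the floor (3 counts or fewer in every library) set to 3 counts. Of the 14, 7 had a group at the floor, and without them the median was 6.39. A high WT level with single knockouts near the floor itself favors a positive departure, so the share and median are a description. Zscan4c, which encodes a zinc finger protein tied to telomere elongation, stood at 8.48, 6.62 and 6.25 CPM in WT mESCs. It fell to 0.384, 0.669 and 0.321 CPM in Hmgn1-/- mESCs and to 0.537, 0.492 and 0.297 CPM in Hmgn2-/- mESCs. In the double knockout it stood at 2.30, 1.72 and 1.67 CPM. The double knockout lay between WT and the single knockouts in every library, with no overlap. The single effects of -3.97 and -3.95 sum to -7.91, the double knockout lay at -1.90, and the departure was 6.02 ± 0.395 (SE; adjusted p = 4.34e-07, edgeR). Against the single knockouts alone, the double knockout was 2.06 higher on the log2 scale (adjusted p = 0.000143, edgeR).

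Zscan4d gave the same picture. It stood at 8.29, 5.32 and 5.42 CPM in WT mESCs, at 0.138 to 0.691 CPM over the 6 single knockout libraries and at 3.01, 2.49 and 1.03 CPM in the double knockout, with a departure of 6.39 ± 0.663 (adjusted p = 1.78e-05, edgeR). Zscan4a and Zscan4e departed by 6.62 and 6.43. Usp17lb, a deubiquitinase gene of the same program, departed by 6.61, but its level in the double knockout was not called against the single knockouts (2.29, adjusted p = 0.0324, edgeR). The Zscan4 genes are near-identical copies on chromosome 7, so the counting may have split their reads, and their values are not independent. The promoters of Zscan4c (chr7:11005495-11005794, plus strand) and Zscan4d (chr7:11166099-11166398, minus strand) show how close the copies are. They are from RefSeq on GRCm38.p6, span the start of transcription, and carry in capitals the bases that differ when the windows are set 11 bases apart.
Zscan4c: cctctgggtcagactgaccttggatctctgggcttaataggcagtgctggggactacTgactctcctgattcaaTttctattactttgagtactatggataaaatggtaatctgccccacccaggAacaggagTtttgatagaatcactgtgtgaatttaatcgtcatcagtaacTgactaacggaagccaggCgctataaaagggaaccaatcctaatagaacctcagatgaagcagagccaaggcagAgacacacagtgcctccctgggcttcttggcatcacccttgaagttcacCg
Zscan4d: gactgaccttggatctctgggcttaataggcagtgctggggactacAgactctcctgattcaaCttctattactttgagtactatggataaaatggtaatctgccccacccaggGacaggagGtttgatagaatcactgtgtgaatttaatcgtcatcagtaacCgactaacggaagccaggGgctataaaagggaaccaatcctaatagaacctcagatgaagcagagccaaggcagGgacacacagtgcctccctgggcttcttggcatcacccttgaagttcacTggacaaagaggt
Over the 289 bases compared, 281 were equal and 8 differed. The summed level of 7 marker genes of 2-cell-like cells, of which Zscan4c was the most abundant over all libraries together, Zscan4d in the double knockout and Zscan4f in Hmgn1-/- mESCs, was 27.8, 20.7 and 18.8 CPM in WT mESCs, 0.917 to 1.91 CPM over the 6 single knockout libraries and 7.94, 7.41 and 5.35 CPM in the double knockout. In bulk RNA, fewer cells of a kind and less RNA per cell cannot be told apart.

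Simple epithelial keratins, which form the intermediate filaments of trophectoderm and other simple epithelia, lay above the sum in 5 of 5 listed genes (median 2.41), against 2.98% of all tested genes. Krt8 stood at 171, 199 and 274 CPM in WT mESCs, at 26.4, 22.7 and 43.0 CPM in Hmgn1-/- mESCs, at 43.0, 44.9 and 68.5 CPM in Hmgn2-/- mESCs and at 42.1, 48.5 and 55.0 CPM in the double knockout. WT lay apart from every knockout library, and the double knockout overlapped each single knockout. The highest Hmgn1-/- library and the lowest Hmgn2-/- library stood level at 43.0 CPM. Its departure was 2.71 ± 0.318 (adjusted p = 5.27e-05, edgeR), and added single effects would have left 7.45 CPM in the double knockout. Its partner Krt18 departed by 2.41 and Krt7 by 2.32. Of the trophoblast genes, 3 of 10 tested lay above the sum (median 0.73), against 2.98% of all tested genes, among them the transcription factor genes Hand1 (2.34) and Ascl2 (2.06). The summed level of 8 trophoblast markers, of which Krt8 was the most abundant over all libraries together and Tfap2c in Hmgn1-/- mESCs, was 326 to 509 CPM in WT mESCs and 80.5 to 152 CPM over the 9 knockout libraries. In WT mESCs this sum was mostly keratin, with means of 214.5 CPM for Krt8 and 136.7 CPM for Krt18. Tfap2c had means of 32.1, 32.5, 34.6 and 27.2 CPM in WT, Hmgn1-/-, Hmgn2-/- and double knockout mESCs. The defining marker Elf5 was at most 8 counts in any library and Cdx2 was near 1 CPM in all 4 lines. Gata3 had means of 4.12 CPM in WT mESCs and 0.437, 0.388 and 0.492 CPM in the Hmgn1-/-, Hmgn2-/- and double knockout lines. For Eomes the means were 9.8, 6.2, 7.0 and 6.1 CPM in the same order. The part of these cells in the result was not tested.

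Genes of matrix and of the contractile cytoskeleton formed the next groups. Of 18 tested genes of the interstitial matrix and of fibroblasts, 6 lay above the sum and none below (median 1.24), against 2.98% and 0.503% of all tested genes. Thbs1, which encodes the matrix glycoprotein thrombospondin 1, stood at 23.6, 29.4 and 34.4 CPM in WT mESCs and at 2.37 to 5.45 CPM over the 9 knockout libraries, and departed by 2.19 ± 0.314 (adjusted p = 0.000292, edgeR). Timp3, an inhibitor of matrix metalloproteinases, departed by 2.6, and the surface glycoprotein gene Thy1 by 1.94. Of 15 smooth muscle and actin genes, 3 lay above the sum (median 0.88), against 2.98% of all tested genes, led by Cald1, which encodes the actin-binding protein caldesmon (2.13). Among them, Cnn1 kept its call only without Hmgn1-/- replicate 3 or replicate 1 or 3 of Hmgn2-/- (1.24 to 1.56 where lost). Among the matrix genes, Col1a2 lost its call without replicate 2 or 3 of Hmgn1-/-, 2 of Hmgn2-/-, 1 or 2 of the double knockout, or 3 of WT (2.91 to 3.29). The YAP target Cyr61 departed by 1.82, and 4 of 13 YAP targets were called above the sum (median 0.97), against 2.98% of all tested genes. Of these 4, Cyr61 alone kept its call whichever library was left out. Axl kept it only without Hmgn2-/- replicate 3 or WT replicate 1 (1.03 to 1.35 where lost). Nt5e lost it without replicate 1 or 3 of Hmgn1-/-, 1 of Hmgn2-/-, 1 or 2 of the double knockout, or 2 or 3 of WT (1.36 to 1.51). Lats2 lost it without replicate 1 or 3 of Hmgn1-/-, or 2 or 3 of the double knockout or of WT (1.26 to 1.43). Summed fibroblast markers were 16.4 to 20.3 CPM in WT mESCs and 5.09 to 7.86 CPM in the knockouts. Thy1 was the most abundant, Lum had 0 counts in every library and Dcn at most 3. Macrophage markers summed to 22.0 to 33.6 CPM in WT mESCs and 6.34 to 11.7 CPM in the knockouts. Most of this sum was the lysosomal gene Cd68, which departed by 1.54. Itgam had means of 2.598, 1.058, 1.064 and 0.88 CPM in WT, Hmgn1-/-, Hmgn2-/- and double knockout mESCs. For Csf1r, with at most 21 counts in a library, the means were 0.4878, 0.1089, 0.1047 and 0.01507 CPM in the same order. Ptprc had at most 7 counts in a library and Aif1 at most 1. The Cd68 call was lost without Hmgn1-/- replicate 1 (adjusted p = 0.0103, edgeR) and without Hmgn2-/- replicate 2 (adjusted p = 0.0102, edgeR). Of 3 macrophage genes tested, Cd68 was the only one called (median 1.51).

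Growth and signaling genes were among those above the sum. Igf2, an imprinted growth factor gene, stood at 62.9, 65.1 and 89.3 CPM in WT mESCs, at 10.4, 10.6 and 10.8 CPM in Hmgn1-/- mESCs, at 21.7, 16.2 and 16.7 CPM in Hmgn2-/- mESCs and at 13.2, 13.2 and 15.4 CPM in the double knockout. It departed by 2.39 ± 0.2003 (adjusted p = 2.76e-06, edgeR), and 4 of 36 tested imprinted genes were called above the sum (median 0.21), against 2.98% of all tested genes. Of these, Peg3 kept its call only without replicate 1 of WT, 3 of the double knockout, or 1 or 3 of Hmgn2-/- (1.12 to 1.27 where lost). Hmga2, an HMG gene of fetal growth, stood at 20.6, 27.7 and 32.4 CPM in WT mESCs and at 5.60 to 8.68 CPM over the 9 knockout libraries. It departed by 2.17 ± 0.229 (adjusted p = 1.99e-05, edgeR), and with Hmgn1 it was the only call among 9 genes of the HMG family (median 0.21) and the only one among 6 oncofetal genes (median 0.32). Of 17 Nodal and BMP genes, 4 lay above the sum (median 0.46), against 2.98% of all tested genes, with the BMP target Id2 at 2.23. Id2 alone of the 4 kept its call whichever library was left out. Nog kept it only without replicate 1 of WT or of the double knockout (1.91 to 2.50 where lost). Id3 lost it without replicate 1 or 2 of Hmgn1-/-, 2 of Hmgn2-/-, or 2 or 3 of the double knockout or of WT (1.43 to 1.70). Nodal fell short of the fold limit without Hmgn2-/- replicate 1, double knockout replicate 2, or WT replicate 2 or 3 (0.93 to 1.00). Of 13 Wnt genes, Wnt3 lay above (2.81) and the Wnt inhibitor gene Dkk1 below (-1.88; median 0.05).

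Genes of formative and primed pluripotency, which rise as mESCs leave the naive state, gave 3 calls above the sum in 16 (median 0.48), against 2.98% of all tested genes. Pou3f1, a POU transcription factor gene, stood at 99.0, 102 and 94.95 CPM in WT mESCs and at 31.8 to 41.4 CPM over the 9 knockout libraries, a departure of 1.40 ± 0.107 (adjusted p = 1.52e-06, edgeR). Fgf5, the classic marker of the primed epiblast, departed by 3.97. Its single effects were -4.40 and -3.70, and the double knockout lay at -4.14, where the sum would have left 0.0149 CPM, a level too low to be counted at this depth. The sum was similarly low, at 0.00816 to 0.0383 CPM, for Usp17lb, Zscan4a, Zscan4c, Zscan4d, Zscan4e, Krt20, Prss23, Eif2s3y and Gbp2. For scale, 1 count was 0.03785 CPM in Hmgn2-/- replicate 2, so these sums lay near or below 1 count. Fgf5 was also the only call among 18 FGF and ERK feedback genes (median -0.05), and it was lost when counts were thinned to the smallest library (adjusted p = 0.0135, edgeR). Of 12 primitive streak and mesoderm genes, 2 were called above the sum (median 0.87), Hand1 and Snai1. Snai1 lost its call without any 1 replicate of Hmgn1-/-, without 1 or 2 of the double knockout, or without 2 or 3 of WT (1.17 to 1.26).

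Interferon-inducible genes gave 3 calls above the sum in 24 (median 0.86), against 2.98% of all tested genes. Gbp2, a guanylate-binding GTPase gene of cell-autonomous defense, stood at 9.92, 11.7 and 13.8 CPM in WT mESCs and at 0.362 to 0.963 CPM over the 9 knockout libraries. It departed by 3.94 ± 0.441 (adjusted p = 3.45e-05, edgeR), and Irgm1 and Oas1a by 2.71 and 2.62. Tap1, the peptide transporter of MHC class I presentation and the only call among 13 genes of that list (median 0.39), stood at 6.04 to 7.05 CPM in WT mESCs, 3.53 to 5.19 CPM over the 6 single knockout libraries and 6.24 to 7.01 CPM in the double knockout. The double knockout lay within the range of WT. The departure was 1.33 ± 0.192 (adjusted p = 0.000318, edgeR), while no single effect and no difference between the double and the single knockouts was called. The single effects of -0.80 and -0.55 passed the limit on adjusted p (0.000479 and 0.0066, edgeR) but not that on fold. The same held for the double knockout against the mean of the singles (0.65, adjusted p = 0.00673, edgeR).

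Germline genes that DNA methylation is known to keep silent gave 9 calls above the sum in 19 and 1 below (median 0.98), against 2.98% and 0.503% of all tested genes. The latter was Tdrd1, named after its values were seen. Mael, which acts in the piRNA pathway, stood at 13.3, 15.3 and 17.6 CPM in WT mESCs, at 4.99 to 7.04 CPM over the 6 single knockout libraries and at 8.10, 7.32 and 8.46 CPM in the double knockout, a departure of 1.79 ± 0.176 (adjusted p = 1.24e-05, edgeR). Tex19.1 departed by 1.66. Rhox6 lost its call without replicate 2 or 3 of Hmgn1-/- or of the double knockout, 2 of Hmgn2-/-, or 3 of WT (1.63 to 1.92), and Rhox9 without double knockout replicate 1 (1.70). Other genes far above the sum, among those with a mean of at least 50 counts, were Pnma5 (4.50), the trypsin-like protease gene Prss23 (3.82), the zinc finger gene Zfp951 (3.67) and the deubiquitinase gene Usp26 (3.51). Among p53 targets, Plk2 (1.37) and the cell cycle inhibitor gene Cdkn1a (1.08) were the 2 calls in 17 (median 0.40). Cryab, a small heat shock protein gene, was the only call of 11 (2.72; median 0.34).

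In 103 of the 427 genes above the sum, every double knockout library lay above every single knockout library, against 402 of 14323 tested genes. In 5 of them every one lay below, against 253. Among the genes called below the sum, the same counts were 12 and 9. A positive departure itself favors a double knockout above the single knockouts, and a negative one the reverse. These counts are therefore a description. Other genes above the sum had every double knockout library above those of only 1 of the single knockouts. Nnat, an imprinted gene for a small membrane protein, stood at 12.8, 11.4 and 10.2 CPM in WT mESCs. It stood at 1.07, 1.10 and 2.11 CPM in Hmgn1-/- mESCs, at 13.9, 15.9 and 13.1 CPM in Hmgn2-/- mESCs and at 12.9, 11.6 and 10.8 CPM in the double knockout. Nnat was thus low in the Hmgn1-/- line alone and at its WT level in the double knockout, which also lacks Hmgn1 (departure 2.73 ± 0.252, adjusted p = 7.69e-06, edgeR). Dock11 was also lowest in the Hmgn1-/- line, at 18.6 to 20.9 CPM in WT mESCs, 1.96 to 1.97 CPM in Hmgn1-/- mESCs, 10.8 to 15.6 CPM in Hmgn2-/- mESCs and 11.7 to 15.5 CPM in the double knockout (departure 3.37 ± 0.225, adjusted p = 4.34e-07, edgeR). Unlike Nnat, it lay below every WT library in Hmgn2-/- mESCs and in the double knockout as well, with log2 FCs of -0.63 and -0.57, which are under the fold limit. In both genes the Hmgn1-/- libraries lay below those of every other line.

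Stard8, an X-linked gene, was higher in the double knockout than in each other line. It stood at 4.25, 6.17 and 6.43 CPM in WT mESCs, at 3.61, 4.54 and 3.62 CPM in Hmgn1-/- mESCs, at 3.84, 5.26 and 3.09 CPM in Hmgn2-/- mESCs and at 10.0, 13.5 and 10.3 CPM in the double knockout. No single effect was called, the departure was 1.95 ± 0.289 (adjusted p = 0.000356, edgeR), and the double knockout lay 1.48 above the single knockouts (adjusted p = 8.33e-05, edgeR). Amot, a Hippo pathway scaffold gene also on the X, stood at 12.4 to 15.7 CPM in the double knockout and at 4.64 to 11.1 CPM over the other 9 libraries (departure 1.56 ± 0.304, adjusted p = 0.00304, edgeR). Its call was lost without WT replicate 3 (1.35, adjusted p = 0.0116, edgeR) and without Hmgn2-/- replicate 2 (1.52, adjusted p = 0.0103, edgeR). In all, 13 of the 427 genes had the double knockout on the other side of WT than the sum (3.04%, against 13.6% of all tested genes).

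**Figure D3:**
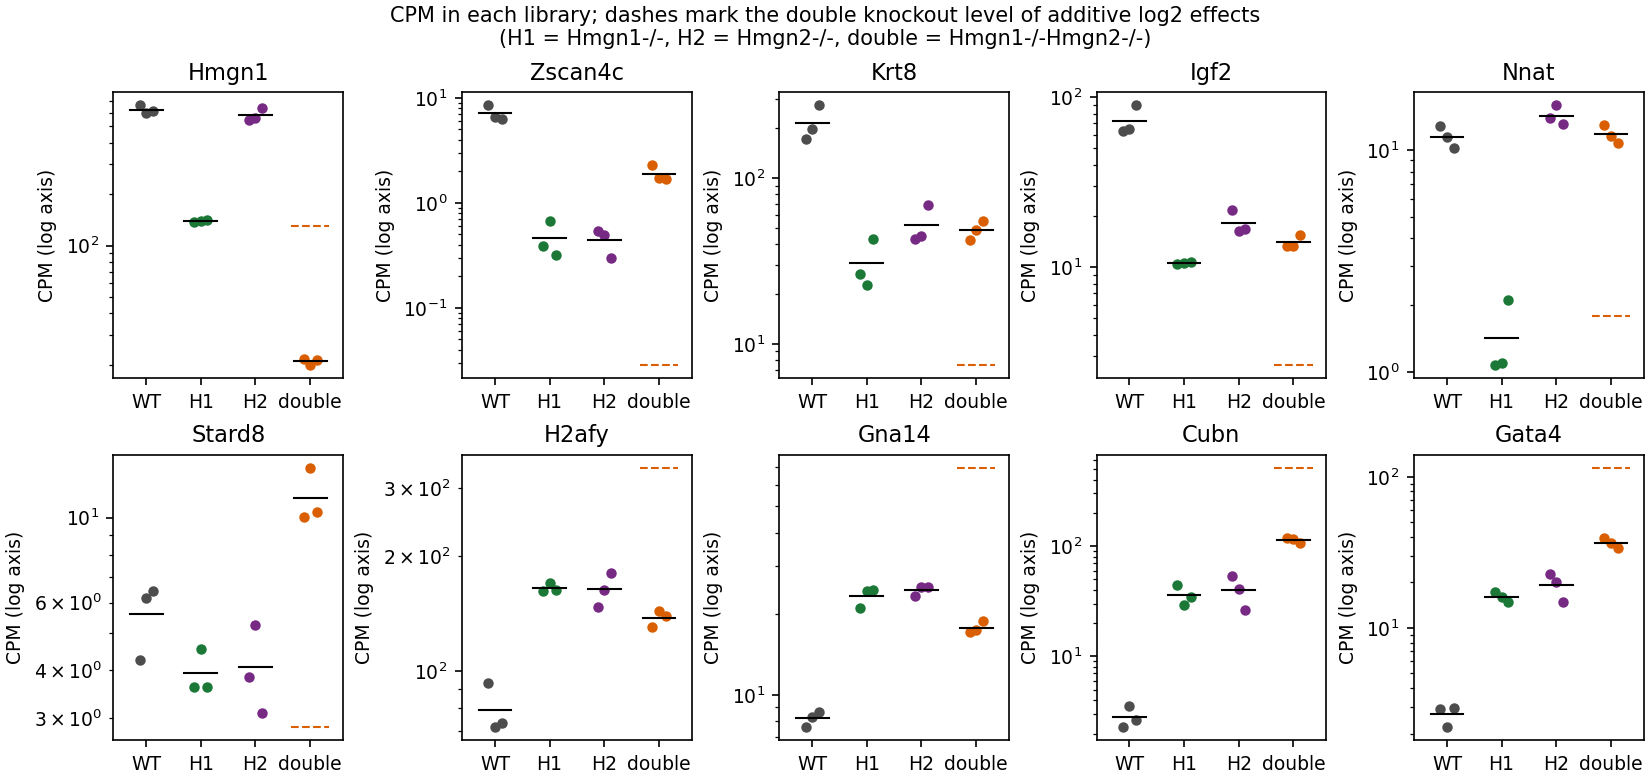
CPM of 10 genes in each of the 12 libraries on a log axis (points, libraries; bars, group means), with dashes at the level the double knockout would have had if the log2 effects had added. Krt8, Igf2, H2afy and Gna14 show every knockout library on the same side of WT; Cubn and Gata4 climb again in the double knockout and still stay below the dashes (514 and 115 CPM).

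Most of the listed regulators of the primitive endoderm lay below the sum on the log2 scale. The primitive endoderm is the extraembryonic layer that lines the blastocyst cavity and gives rise to the yolk sac. Of 12 tested genes of this list, 8 were called below the sum and none above, against 0.503% of all tested genes. The list also holds the receptor gene Pdgfra and the endocytic adaptor gene Dab2. Its median departure was -1.38 (-1.34 with groups at the floor set to 3 counts). On the linear CPM scale the departure was positive for all 12. Of the same 12, 10 were called higher in the double knockout than in the single knockouts, against 0.335% of all tested genes. A low WT level with a rise in both single knockouts itself favors a negative log2 departure. The list was also written with earlier results of these data known, so its shares and median are a description. Gata4, a zinc finger factor that drives this lineage, stood at 2.91, 2.21 and 2.95 CPM in WT mESCs, at 17.2, 16.1 and 14.8 CPM in Hmgn1-/- mESCs, at 22.9, 20.1 and 14.9 CPM in Hmgn2-/- mESCs and at 39.1, 36.3 and 33.8 CPM in the double knockout. The double knockout was above every single knockout library, which were above every WT library. The single effects of 2.55 and 2.82 sum to 5.37, the double knockout lay at 3.73, and the departure was -1.64 ± 0.207 (adjusted p = 0.0001, edgeR).

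Pdgfra, the receptor that marks primitive endoderm precursors, stood at 0.782, 0.736 and 0.868 CPM in WT mESCs, at 9.67, 9.74 and 8.44 CPM in Hmgn1-/- mESCs, at 12.5, 12.1 and 7.73 CPM in Hmgn2-/- mESCs and at 25.9, 25.8 and 19.9 CPM in the double knockout (departure -2.39 ± 0.277, adjusted p = 4.81e-05, edgeR). Sox17, an endoderm factor gene, stood at 0.501, 0.453 and 0.347 CPM in WT mESCs, at 4.26 to 6.74 CPM over the 6 single knockout libraries and at 9.82, 13.9 and 11.7 CPM in the double knockout (departure -2.27 ± 0.306, adjusted p = 0.000172, edgeR). Both genes kept the same order of lines as Gata4. Gata6 departed by -1.30 ± 0.279 (adjusted p = 0.00566, edgeR), and this call rests on single libraries. It was lost without replicate 1 or 2 of Hmgn1-/- (-1.16 and -1.32), 1 or 2 of Hmgn2-/- (-1.22 and -1.17), 1 or 3 of the double knockout (-1.31 and -1.23), or 1 or 3 of WT (-1.14 and -1.34), with adjusted p from 0.0105 to 0.0212 (edgeR).

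Endocytic genes of the visceral endoderm followed the regulators in part. Cubn encodes cubilin, the receptor by which this tissue takes up nutrients. It stood at 2.28, 3.56 and 2.64 CPM in WT mESCs, at 44.4, 29.2 and 34.7 CPM in Hmgn1-/- mESCs, at 53.2, 40.9 and 26.6 CPM in Hmgn2-/- mESCs and at 119, 115 and 107 CPM in the double knockout (departure -2.24 ± 0.311, adjusted p = 0.000224, edgeR). Its adaptor Dab2 stood at 3.16 to 3.82 CPM in WT mESCs, 18.2 to 33.0 CPM over the single knockouts and 71.5 to 74.5 CPM in the double knockout (departure -1.39 ± 0.214, adjusted p = 0.000509, edgeR), and the endothelial trafficking gene Nostrin departed by -2.87. Of 13 tested genes of the list, these 3 lay below the sum (0.503% of all tested genes did) and Amot above it (2.98% did), with a median of 0.13. Of the 13, 5 were called higher in the double knockout than in the single knockouts (0.335% of all tested genes were). Dab2 is also on the list of primitive endoderm regulators, so its call counts in both lists. Of 14 basement membrane genes, Sparc lay above the sum (1.49) and none below (median 0.29).

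GATA factors bind the letters GATA, and the promoters of these genes were searched for GATAA on either strand (GATAA or TTATC). Of 12 genes below the sum that were called higher in the double knockout than in the single knockouts, 7 had a promoter in the RefSeq table: Dab2 held 2 matches, Tfec (named after its values were seen) 1 and the others 0. Over all listed promoters, 25.8% held a match, and over the 10488 tested genes with a listed promoter 15.6% did. Of the genes with a listed promoter, 54 of 301 above the sum (17.9%) and 10 of 49 below it (20.4%) held a match. No test of these shares was run. With 7 promoters, the 12 genes are too few for their share to be compared. The Dab2 promoter (chr15:6299539-6299838, plus strand, GRCm38.p6, the first of 2 listed) is shown with its matches in capitals.
Dab2: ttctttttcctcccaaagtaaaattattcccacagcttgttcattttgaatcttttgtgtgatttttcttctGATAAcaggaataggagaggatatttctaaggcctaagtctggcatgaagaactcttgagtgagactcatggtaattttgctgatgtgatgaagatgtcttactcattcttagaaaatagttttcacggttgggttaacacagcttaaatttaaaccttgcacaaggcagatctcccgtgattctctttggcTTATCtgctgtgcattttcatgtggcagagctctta
A match describes these letters only, and binding was not measured.

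For the primitive endoderm genes the scale decides the sign. On the linear CPM scale, Cubn was 40.0 ± 9.50 CPM (SE) above the sum of the single changes and Dab2 25.4 ± 4.05 CPM above it, whereas on the log2 scale both lay below. Of the 72 genes below the sum, 12 turned positive on the linear scale, among them Cubn, Dab2, Gata4, Gata6, Nostrin, Pdgfra, Sox17 and Dkk1, and 9 of the 12 exceeded 2 standard errors. The excess was within 2 standard errors for Gata4 (3.75 ± 2.90 CPM), Pdgfra (4.61 ± 2.52 CPM) and Sox17 (2.23 ± 1.34 CPM). In each of the 12 the double knockout was called above the single knockouts. For the 9 genes past 2 standard errors, the double knockout mean exceeded WT by more CPM than the single changes summed. Its fold over WT was still smaller than the product of the single folds. No test was run on the linear scale, so the limit of 2 standard errors is a description. The other 60 genes below the sum were below it on both scales, and all 427 genes above the sum were above it on both. Summed primitive endoderm markers, 10 genes with Lama1 the most abundant over all libraries together and Col4a1 in the double knockout, were 144 to 189 CPM in WT mESCs, 393 to 479.5 CPM in Hmgn1-/- mESCs, 358 to 556 CPM in Hmgn2-/- mESCs and 956 to 1050 CPM in the double knockout, and all 10 had counts in every library.

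Gna14, Nexn and H2afy lay below the sum and rose in both single knockouts. Gna14, which encodes a G protein alpha subunit of the Gq family, stood at 7.60, 8.32 and 8.68 CPM in WT mESCs, at 20.98, 24.4 and 24.5 CPM in Hmgn1-/- mESCs, at 23.4, 25.1 and 25.1 CPM in Hmgn2-/- mESCs and at 17.1, 17.4 and 18.8 CPM in the double knockout (departure -1.97 ± 0.132, adjusted p = 4.34e-07, edgeR). The double knockout lay between WT and the single knockouts in every library, as it did for H2afy. Nexn, an actin-binding protein gene, departed by -2.07. H2afy, which encodes the histone variant macroH2A1, stood at 93.4, 71.5 and 73.4 CPM in WT mESCs, at 162, 170.0 and 163 CPM in Hmgn1-/- mESCs, at 147, 163 and 179.9 CPM in Hmgn2-/- mESCs and at 130.3, 143 and 139 CPM in the double knockout (departure -1.30 ± 0.133, adjusted p = 1.75e-05, edgeR). H2afy2, for macroH2A2, departed by -1.09 ± 0.215 (adjusted p = 0.00321, edgeR), a call that was lost without Hmgn1-/- replicate 1 (-1.05), without double knockout replicate 2 (-1.04), and without WT replicate 2 (-0.98) or 3 (-0.95). They were the 2 calls among 15 tested linker and variant histone genes (median -0.18).

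**Figure D4:**
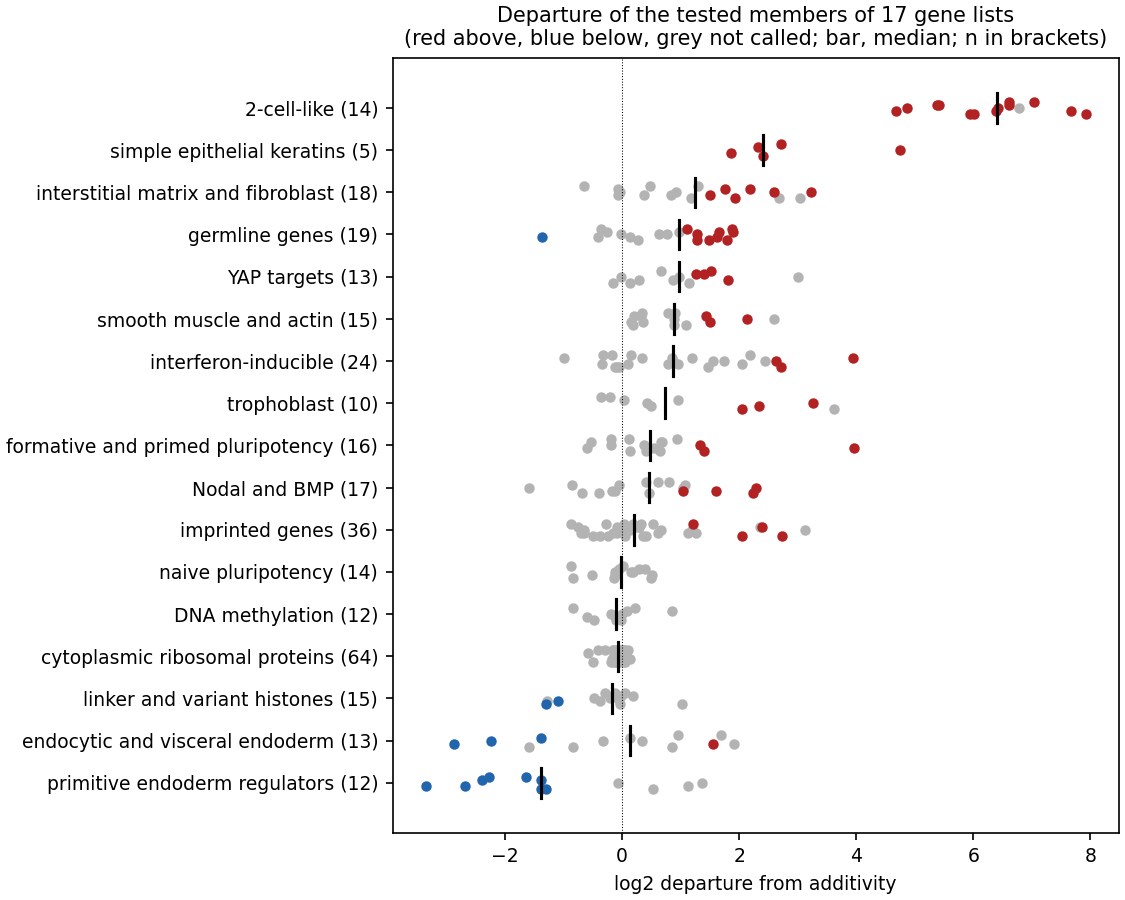
Log2 departure of each tested member of 17 gene lists (red, called above the sum; blue, called below; grey, not called; bar, list median). The 2-cell-like genes lie between 4.68 and 7.92, primitive endoderm regulators reach -3.35, and the medians of naive pluripotency and ribosomal protein genes lie near 0. Of the 14 2-cell-like genes, 7 have a group at the floor (3 counts or fewer in every library), as does Tfec at -3.35, so these values depend on the floor.

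Lists with 1 or 2 calls, which were those of FGF, Wnt, MHC class I, basement membrane, heat shock, oncofetal, HMG, macrophage, p53, histone, Y-linked and streak genes, are to be read against the 3.48% called over all tested genes, and nothing particular to them is drawn from these counts. Core pluripotency genes showed no called departure. Pou5f1, Sox2 and Nanog departed by 0.04 ± 0.126, -0.17 ± 0.0712 and 0.38 ± 0.0968 (adjusted p = 0.873, 0.148 and 0.0163, edgeR). No member was called in the lists of mESC markers (10 tested, median -0.13), naive pluripotency (14, -0.01), DNA methylation (12, -0.10), neural genes (12, -0.02), acetyltransferases and deacetylases (15, -0.04) or Polycomb (19, -0.05). The same held for cytoplasmic ribosomal proteins (64, -0.06), oxidative phosphorylation (34, -0.08), glycolysis (17, -0.05) and the amino acid response (16, -0.44). The summed mESC markers ran from 6587 to 7856 CPM over all 12 libraries. Among the 9 lineage genes that the study followed (median -0.17), Gata6, Sox17 and Pdgfra were below the sum, against 0.503% of all tested genes. Nes (0.71, adjusted p = 0.0029, edgeR), Pax6 (-0.61, adjusted p = 0.0773, edgeR) and Kdr (2.15, adjusted p = 0.0558, edgeR) were not called.

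Whole chromosomes differed between WT and all 3 knockout lines. Over 764 genes of chromosome 8, the median log2 difference from the WT mean was 0.24 to 0.27 in each of the 9 knockout libraries and -0.02 to 0.01 in WT libraries, and the median departure was -0.27. Of these 764 genes, 14 lay below the sum, against 72 of all 14323 tested, and 8 lay above it (1.05%, against 2.98%). Over 499 genes of the X, the median was -0.21 to -0.12 in the knockout libraries, and 33 genes lay above the sum (6.61%, against 2.98% of all tested genes). Y-linked genes were low in WT mESCs and close to 0 in the knockouts: Eif2s3y had 80, 33 and 59 counts in WT libraries and 2 to 15 counts in the 9 knockout libraries, and 2 of the 3 tested members of the list of Y-linked genes, Ddx3y (named after its values were seen) and Eif2s3y, lay above the sum (median 3.57). Over all 4 tested genes of the Y, 2 were called and the median was 3.33. The Eif2s3y call (3.57, adjusted p = 0.00974, edgeR) was kept without Hmgn2-/- replicate 3 or double knockout replicate 3 and lost without any of the other 10 libraries (3.08 to 4.04, adjusted p from 0.0113 to 0.0472). Outside chromosomes 8, X and Y, an alternative chosen after seeing the data, 441 genes were called, 384 above and 57 below. The part of chromosome content in the departures was not tested.

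**Figure D5:**
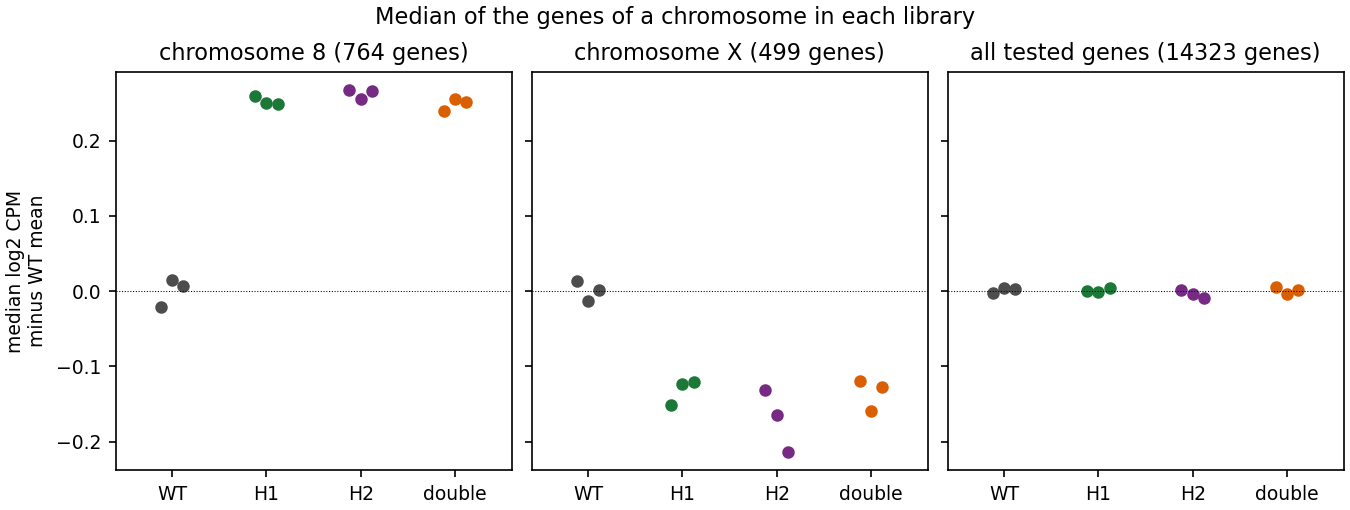
Median over genes of log2 CPM minus the WT mean, for chromosome 8, chromosome X and all tested genes, 1 point a library. Chromosome 8 lies at 0.24 to 0.27 in all 9 knockout libraries and the X at -0.21 to -0.12, while the median of all genes stays near 0.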

How the data were processed

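The authors isolated poly-A RNA, sequenced 150 bp paired ends, aligned them to mm10 with STAR and deposited counts, whole numbers of reads per gene, without normalization. The counting program, its annotation and its use of strand are not given in the sources used here, so overlapping genes and near-identical copies may share reads. The 12 libraries were fitted together in R 4.3.3 with edgeR 4.0.16 (TMM scaling, filterByExpr, 4 group means, quasi-likelihood test, Benjamini-Hochberg adjustment over 14323 genes). Calls needed an adjusted p under 0.01 and a log2 value of at least 1 in size. No pair of replicates agreed within sampling noise, and Hmgn2-/- replicate 3 differed most from its replicates.

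Genes were named by rule: the edited genes; the 8 largest departures each way with a mean of at least 50 counts; the 6 largest differences each way between double and single knockouts among them; up to 4 called members of each of 36 gene lists; and the lineage and pluripotency genes. A gene that the rule chose is not reported here. Members and lists were chosen with earlier results of these data known. Gene positions came from RefSeq by symbol (13297) or synonym (968). Alternatives were DESeq2 1.42.0, other scalings, filters and limits, thinned counts, a replicate block and each library left out. The pipeline was tested on simulated data.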

Additional observations from a re-analysis of the deposited data

Results flagged for a closer look

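The departure contrast is itself a test of whether lines with and without one gene differed equally with the other gene present and absent. By this interaction test (edgeR quasi-likelihood) the effect differed between backgrounds for 499 genes, 427 with a positive and 72 with a negative log2 departure. The values of the 69 genes named by rule follow, by group, and no cause was tested.

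In the 2-cell-like program the log2 departure was 6.62 for Zscan4a, 6.02 for Zscan4c, 6.39 for Zscan4d, 6.43 for Zscan4e and 6.61 for Usp17lb. For keratin and trophoblast genes it was 4.75 for Krt20, 2.71 for Krt8, 2.41 for Krt18, 2.32 for Krt7, 2.34 for Hand1 and 2.06 for Ascl2. For matrix, actin and YAP target genes it was 3.23 for Col1a2, 2.6 for Timp3, 2.19 for Thbs1, 1.94 for Thy1, 1.49 for Sparc, 2.13 for Cald1, 1.5 for Tagln, 1.44 for Cnn1, 1.82 for Cyr61, 1.51 for Nt5e, 1.40 for Lats2 and 1.26 for Axl.

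For pluripotency and signaling genes it was 3.97 for Fgf5, 1.40 for Pou3f1, 1.34 for Sox3, 2.81 for Wnt3, 2.29 for Nog, 2.23 for Id2, 1.60 for Id3, 1.23 for Snai1 and 1.04 for Nodal. For growth and imprinted genes it was 2.73 for Nnat, 2.39 for Igf2, 2.17 for Hmga2 and 1.22 for Peg3. For immune and stress genes it was 3.94 for Gbp2, 2.71 for Irgm1, 2.62 for Oas1a, 1.33 for Tap1, 1.54 for Cd68, 2.72 for Cryab, 1.37 for Plk2 and 1.08 for Cdkn1a. For germline genes it was 1.90 for Rhox6, 1.88 for Rhox9, 1.79 for Mael and 1.66 for Tex19.1, and for other genes 4.50 for Pnma5, 3.82 for Prss23, 3.67 for Zfp951, 3.57 for Eif2s3y, 3.51 for Usp26, 3.37 for Dock11, 1.95 for Stard8 and 1.56 for Amot.

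Among genes below the sum it was -2.87 for Nostrin, -2.39 for Pdgfra, -2.27 for Sox17, -2.24 for Cubn, -1.88 for Dkk1, -1.64 for Gata4, -1.39 for Dab2 and -1.30 for Gata6. It was -2.63 for Hmgn1, itself an edited gene, -2.07 for Nexn, -1.97 for Gna14, -1.30 for H2afy and -1.09 for H2afy2.

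Calls that were lost when 1 of the 12 libraries was left out were those of Axl, Eif2s3y and Nog (for 10 of the libraries), Cnn1 (9), Gata6 and Peg3 (8), Id3, Nt5e and Snai1 (7), Col1a2, Lats2 and Rhox6 (6), H2afy2 and Nodal (4), Amot and Cd68 (2) and Rhox9 (1).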

How the results depend on the processing

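The excess of genes above the sum held in every alternative run, with 82.8 to 87.1% of calls above, except 65.3% without a limit on fold and 96.0% with glmTreat. The cause of the changes below was not tested, other than that a looser or stricter limit calls more or fewer genes. Counts are given for the departure (above and below), Hmgn1 loss in WT and in Hmgn2-/- mESCs, Hmgn2 loss in WT and in Hmgn1-/- mESCs, and the double against the single knockouts.

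At an adjusted p under 0.05 the departure called 798 genes (664 and 134), Hmgn1 loss in Hmgn2-/- mESCs 32 and the double against the single knockouts 82. Without a limit on fold the departure called 905, with 314 below, Hmgn1 loss in WT 2153, Hmgn2 loss in WT 2215 and in Hmgn1-/- mESCs 127, and the double against the singles 109. With glmTreat, which tests against the fold limit, the calls were 99 (95 and 4), 221 and 1, 201 and 9, and 2. With at least 10 counts in every library, Hmgn1 loss called 520 and 11, Hmgn2 loss 541 and 45, and the double against the singles 26. Hmgn1 loss in Hmgn2-/- mESCs called 37 with DESeq2, 30 with no filter and 30 with a replicate block.

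With 1 library left out, the departure called 367 to 586, with 310 to 491 above and 53 to 95 below. Hmgn1 loss called 653 to 865 in WT and 4 to 23 in Hmgn2-/- mESCs, Hmgn2 loss 662 to 897 in WT and 51 to 74 in Hmgn1-/- mESCs, and the double against the singles 32 to 56. With replicate number as a block, the departure called 582 (496 and 86). The 18 same-numbered pairs of libraries had r from 0.0169 to 0.301, with 11 over 0.1. All 12 libraries were closest on average to those of their own number. The labels do not state a pairing, and a shared batch was not tested beyond the block.

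Of the 69 named genes called, 51 were called in every setting run for them, 17 lost the call when at least 1 library was left out, 9 lost it when counts were thinned to the smallest library (Amot, Axl, Cnn1, Eif2s3y, Fgf5, Gata6, Nog, Nt5e and Snai1), and all 69 kept their sign on the log2 scale. Of the named genes not called, Pou5f1 ranged from -0.04 to 0.16. On the linear CPM scale 487 of the 499 called genes kept their sign. The named genes that reversed were Cubn (40.0 CPM), Dab2 (25.4), Gata6 (6.74), Pdgfra (4.61), Gata4 (3.75), Sox17 (2.23), Nostrin (1.30) and Dkk1 (1.29).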
